A study of Mus musculus with 24 samples.

Results

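Described here are 10 mouse genes of retinoic acid synthesis, breakdown and binding, chosen by symbol from the 32040 genes listed. They are the oxidoreductase genes Rdh10 and Dhrs3, the retinaldehyde dehydrogenase genes Aldh1a1, Aldh1a2 and Aldh1a3, the breakdown enzyme genes Cyp26a1, Cyp26b1 and Cyp26c1, and the binding protein genes Crabp1 and Crabp2. Of these, 9 passed the filter on low counts and were tested among 16190 genes, and Cyp26c1 did not pass it. RNA came from supporting cells, the somatic cells that surround the germ cells, sorted from fetal gonads. Pre-granulosa cells were sorted from XX gonads of the Tg(Enh8-mCherry) line and Sertoli cells from XY gonads of the SOX9-IRES-GFP line. Both were taken at 4 embryonic stages (E11.5, E12.5, then E13.5, then E15.5), which gave 8 groups of 3 libraries, 24 in all. The comparisons ask when the levels change in XX and in XY and where the sexes part. Sex, mouse line and fluorophore changed together, so their parts in an XX minus XY difference cannot be told apart. The labels name the transgene of the XX line and not the cells in which its enhancer is active, and how many embryos went into a library is not given in the sources used here. Nothing in the labels says that replicates came from separate litters, so p-values measure the spread between these libraries, which may be technical.

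Retinoic acid is made from vitamin A (retinol) in a pair of oxidation steps. Retinol is first oxidised to retinaldehyde, which RDH10 does and DHRS3 reverses, and ALDH1A enzymes then oxidise retinaldehyde to retinoic acid. CYP26 enzymes break retinoic acid down, CRABP proteins carry it inside the cell, and the nuclear receptors RAR and RXR change transcription when it binds. In the fetal gonad, retinoic acid is known for its link to the entry of ovarian germ cells into meiosis, and Cyp26b1 of the fetal testis is known for limiting it.

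The annotation (GENCODE M21, GRCm38, which is mm10, the build in the submitters' processing notes) places Cyp26c1 and Cyp26a1 next to each other on chromosome 19. Cyp26c1 lies at chr19:37685581-37693398 and Cyp26a1 at chr19:37697798-37701536, both on the plus strand and 4399 bases apart. Cyp26b1 lies on the minus strand at chr6:84571414-84593908. The promoters of Cyp26a1 and Cyp26b1, the CYP26 genes with reads above the floor, are shown because their levels in Sertoli cells took different courses. Both are 300-base windows around the start site, written 5′ to 3′ in the direction of the gene, from RefSeq (GRCm38.p6), in which 7 of the 10 genes were matched. The Cyp26a1 window is chr19:37697558-37697857 on the plus strand, and its capitals mark a direct repeat of 6-letter half-sites spaced by 5 bases, a spacing that RAR and RXR are known to bind. The Cyp26b1 window is chr6:84593761-84594060 on the minus strand, and its capitals mark TATAAA.
Cyp26a1: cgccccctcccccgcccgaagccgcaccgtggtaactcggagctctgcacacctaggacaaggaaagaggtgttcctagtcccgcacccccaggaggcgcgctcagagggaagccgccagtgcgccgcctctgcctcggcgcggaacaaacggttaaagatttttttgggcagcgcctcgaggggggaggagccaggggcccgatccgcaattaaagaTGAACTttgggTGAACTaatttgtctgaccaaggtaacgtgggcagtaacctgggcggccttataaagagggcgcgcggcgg
Cyp26b1: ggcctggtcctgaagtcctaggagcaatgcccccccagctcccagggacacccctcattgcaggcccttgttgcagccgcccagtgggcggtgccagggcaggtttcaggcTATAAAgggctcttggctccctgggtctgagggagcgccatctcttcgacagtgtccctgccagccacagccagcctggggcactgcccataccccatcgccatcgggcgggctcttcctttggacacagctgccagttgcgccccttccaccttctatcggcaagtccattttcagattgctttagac
Both strands were searched for AGTTCANNNNNAGTTCA, AGTTCANNNNNAGGTCA, AGGTCANNNNNAGTTCA and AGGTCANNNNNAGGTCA. Of 32851 promoter windows of this length, 13 (0.0396%) held a match, and of the 10 windows of these genes, that of Cyp26a1 did. The 10 windows belong to the 7 matched genes, some of which have more than 1. Rdh10, Aldh1a3 and Crabp2 had no window and were not searched. The match there was AGTTCANNNNNAGTTCA on the minus strand, from base -32 to base -16 relative to the start site. The same half-sites spaced by 2 bases (for instance AGTTCANNAGGTCA) or by 1 base (for instance AGTTCANAGGTCA) were in 13 (0.0396%) and 27 (0.0822%) of all windows and in none of these 10. TATAAA was in 4473 windows (13.6%), among them those of Cyp26a1, where it lay after the start site, and Cyp26b1, where it began at base -139. Positions are relative to the start site of the RefSeq window, which differs from the gene start in the annotation for both genes. A match is a description of the letters in this window only.

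Levels are given as the authors' TPM, transcript abundance scaled by length and depth, which can be compared between genes. Differences are log2 differences of counts from edgeR, called at an adjusted p under 0.05 over all genes tested. Total counts per library ranged from 11275251 to 37256881, and a floor of 3 counts per library stands in for a group at 0, with no fold where both groups were at or under it. Summed over 10 markers each, Sertoli markers stood at 1138 to 10450 TPM in XY and 80.5 to 281 TPM in XX libraries, and pre-granulosa markers at 469 to 1617 TPM in XX and 126 to 362 TPM in XY libraries. The E11.5 libraries stood apart. Amh, a Sertoli hormone gene, was at 16.9 to 40.6 TPM in XY E11.5 and at 3368.49 TPM or more in later XY libraries. Foxl2, a pre-granulosa transcription factor gene, was at 1.35, 15.8 and 2.32 TPM in XX E11.5 replicates 1, 2 and 3 and at 7.33 TPM or more in later XX libraries. The 6 erythroid markers summed to 26077, 7400 and 62369 TPM in the same XX E11.5 libraries, and to at most 3400 TPM in the other 21. The 10 interstitial markers summed to 187 to 1047 TPM in XX E11.5 and to 458 to 777 TPM in XY E11.5, with replicate 3 highest in each, and to 34.5 to 91.8 TPM in later XY libraries, against 143 to 303 TPM in later XX libraries, with 8 to 9 of the 10 at 1 TPM or more in every later XX library. The 6 immune markers summed to 25.0 to 294 TPM in XX and to at most 3.13 TPM in XY. From E12.5 both lists stood higher in XX, as did Rdh10, Dhrs3, Crabp1, Aldh1a2 and Aldh1a3, and Crabp2 was called higher at E12.5 and E13.5. Mesonephric markers were also higher in XX, at 27.5 to 47.5 against 2.85 to 6.03 TPM at E12.5. At E15.5 so were the sums of steroidogenic (240 to 263 against 52.1 to 91.9 TPM) and surface epithelium markers (404 to 482 against 163 to 170 TPM). Of the 5 steroidogenic markers, 3 were at 1 TPM or more in every XX E15.5 library, against all 5 in every XY E15.5 library. For the 6 surface epithelium markers these counts were 5 in XX and 3 in XY. Endothelial markers overlapped at that stage. The part of these lists in the XX minus XY differences was not tested. XY E11.5 replicate 3 also held 4.25 TPM of Xist, an RNA of the inactive X chromosome, against 0.02 and 0.71 TPM in the other 2. For XX E13.5 replicate 1, 1 label field gives E12.5 while its title gives E13.5. In bulk libraries, fewer cells of a type and less RNA per cell cannot be told apart.

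Fewer of these genes differed by sex at E11.5 than at later stages. At E11.5, edgeR called 5 of the 9 genes tested, with Dhrs3 and Aldh1a3 higher in XX and Cyp26a1, Cyp26b1 and Aldh1a1 higher in XY. Of all 16190 genes, 21.4% were called with XX higher and 20.6% with XY higher. With the 6 E11.5 libraries fitted alone, 3 of the 9 were called, and 2718 of all genes against 6803 in the fit of all libraries. Without XY E11.5 replicate 3, the library with Xist, the 5 kept their calls, at 2.22 for Dhrs3, 0.82 for Aldh1a3, -4.16 for Cyp26a1, -1.57 for Cyp26b1 and -1.53 for Aldh1a1 on the log2 scale. At E12.5 all 9 were called, 6 higher in XX (against 30.5% of all genes) and 3 higher in XY (against 31.5%). At E13.5 the 6 remained higher in XX (against 32.8%), while Cyp26b1 and Aldh1a1 were higher in XY (against 33.3%). Without XX E13.5 replicate 1, whose label fields differ, 8 were still called at E13.5. At E15.5, 6 were higher in XX (against 34.9%), now with Cyp26a1 in place of Crabp2, and Cyp26b1 and Aldh1a1 stayed higher in XY (against 34.4%). Between 8 and 9 of 9 called is more than the share of all genes called at these 3 stages, but 9 genes chosen with earlier results known are no sample of the genome. The median log2 difference of the 9 was 0.08, 2.23, 1.39 and 0.72 at the 4 stages, and that of all genes lay between -0.01 and 0.05. Of the genes called at E11.5, 50.9% were higher in XX in edgeR and 39.7% with limma on log2(TPM + 1). At E12.5 these shares were 49.2% and 62.5%.

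**Figure D1:**
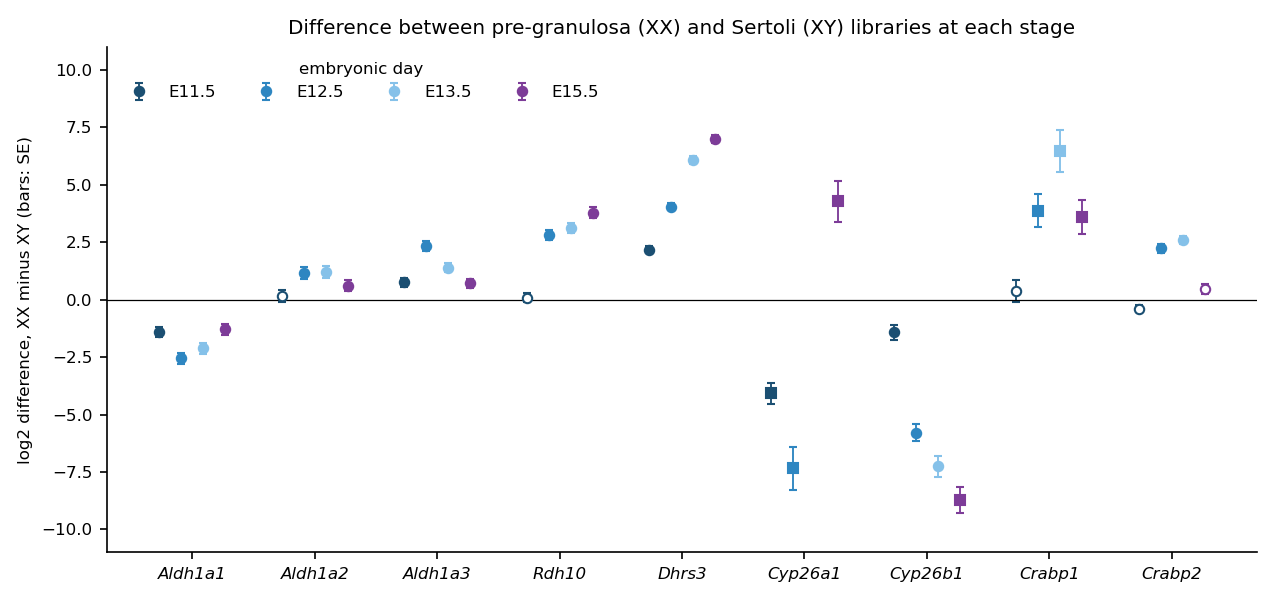
Log2 difference of XX minus XY libraries (edgeR, bars are SE) for the 9 genes tested, at 4 stages. Filled symbols were called and open symbols were not; squares mark differences with few counts in 1 group, whose size depends on the prior count, and Cyp26a1 at E13.5 is left out because both groups were at the floor. Dhrs3 rises from 2.18 to 6.99 and Cyp26b1 falls from -1.42 to -8.73.

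In the fit of all libraries, more of the 9 were called at the step from E11.5 to E12.5 than at later steps in each sex. With only the 6 libraries of a step fitted, this held in XY (8, 5 and 4 called) and not in XX (3, 4 and 4). Those fits called 7753, 4317 and 6111 of all genes in XY and 1176, 6462 and 5581 in XX. Both counts were highest at the first step in XY and lowest there in XX. At the last XY step the members went from 5 to 4 called, while all genes went from 4317 to 6111. From E11.5 to E12.5 in XX, 3 of the 9 rose in the fit of all libraries (against 16.7% of all genes) and 5 fell (against 17.3%). In XY, 2 rose (against 27.1%) and 6 fell (against 24.8%), and the 6 were Dhrs3, Rdh10, Aldh1a3, Cyp26a1, Crabp1 and Crabp2. From E12.5 to E13.5, 3 were called higher in XX (against 14.2%) and 1 fell (against 17.4%), and the 3 include Cyp26a1, for which both groups were at or under the floor, while in XY 2 rose (against 8.02%) and 2 fell (against 8.62%). From E13.5 to E15.5, 4 rose in XX (against 12.8%) and 1 fell (against 12.8%). At that step edgeR called none in XY (against 21.3% of all genes in either direction), with 1 of 9 at an unadjusted p under 0.05 in edgeR and in DESeq2, and DESeq2 also called none. Without the 6 E11.5 libraries, 3 were called there and 7 in XY from E12.5 to E13.5. Of all genes, 5187 and 4470 were then called at these steps, against 3448 and 2694 in the fit of all libraries. Across all 4 stages, all 9 changed in XX (against 74% of all genes) and all 9 in XY (against 70.3%), and for all 9 the XX minus XY difference changed between stages (against 70.1%). Shares this high among all genes leave little to read from 9 of 9. The share of called genes that rose was 49.1% at the first XX step in edgeR and 66.6% with limma on log2(TPM + 1), where only the 6 libraries compared gave 30.7%. It was 45% in edgeR and 18.9% with limma at the second XX step, and 52.2% and 35.3% at the first XY step.

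**Figure D2:**
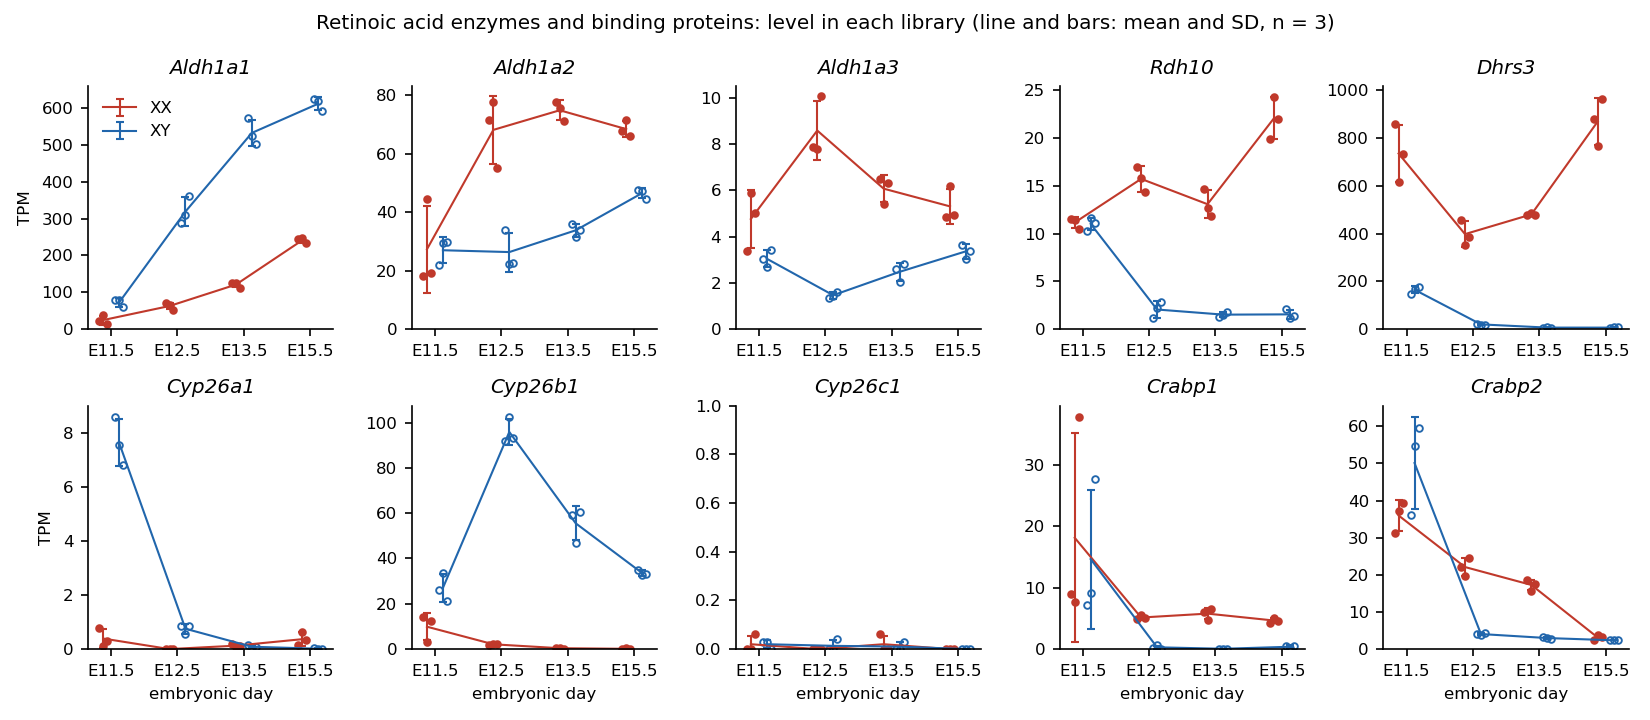
TPM of each of the 10 genes in each of 24 libraries by embryonic day, on linear axes that start at 0; filled red points are XX, open blue points are XY, and lines and bars give the mean and SD of 3 libraries. Aldh1a1 climbs in both sexes, Rdh10 and Dhrs3 drop in XY after E11.5 and stay above XY in XX, Cyp26b1 peaks in XY at E12.5, and Cyp26c1 stays at 0.06 TPM or less.

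Aldh1a1, which encodes a retinaldehyde dehydrogenase, was the most abundant of the 3 dehydrogenase transcripts in XY at every stage and rose in both sexes. XX libraries held 21.2, 38.3 and 14.9 TPM at E11.5, then 70.8, 64.9 and 53.2 TPM at E12.5, then 125.3, 124.8 and 112.7 TPM at E13.5, and last 244, 247 and 233 TPM at E15.5. XY libraries held 79.8, 78.0 and 59.4 TPM at E11.5, then 287, 309 and 361 TPM at E12.5, then 572, 524 and 501 TPM at E13.5, and last 623, 619 and 591 TPM at E15.5. Every XY library was above every XX library of its stage. The XX minus XY difference, in order of stage, was -1.40 (SE 0.23, edgeR adjusted p = 6.62e-05), -2.55 (SE 0.24, 1.13e-08), -2.11 (SE 0.23, 1.11e-07) and -1.29 (SE 0.23, 3.94e-05). In XX it rose at each step, by 1.22, 1.15 and 1.02 on the log2 scale, though with the 6 libraries of the first step fitted alone that step was 1.19 and not called (edgeR adjusted p = 0.0751). In XY it rose by 2.36 to E12.5 and by 0.71 to E13.5 (edgeR adjusted p = 0.0346), while the 0.19 to E15.5 was not called (adjusted p = 0.596). The E13.5 call was lost without any 1 of XY E12.5 replicates 1 or 2 or XY E13.5 replicates 1, 2 or 3, with differences from 0.64 to 0.78 and adjusted p from 0.0534 to 0.112. Aldh1a1 has a close paralog, Aldh1a7, at 10.2 to 58.5 TPM in these libraries, and how reads shared by both were divided is not given in the sources used here. An annotated antisense gene over Aldh1a1, C730002L08Rik, was at 0.2 TPM or less.

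Aldh1a2, the dehydrogenase known for most retinoic acid synthesis in the embryo, was the one of the 3 that differed little at E11.5 and then stood higher in XX. XX libraries held 18.2, 44.5 and 19.3 TPM at E11.5, then 71.5, 77.6 and 55.1 TPM at E12.5, then 77.6, 75.6 and 71.1 TPM at E13.5, and last 67.7, 71.3 and 66.0 TPM at E15.5. XY libraries held 21.9, 29.4 and 29.7 TPM at E11.5, then 34.0, 22.3 and 22.7 TPM at E12.5, then 35.9, 31.5 and 34.0 TPM at E13.5, and last 47.7, 47.3 and 44.4 TPM at E15.5. The groups overlapped at E11.5 and were apart from E12.5. XX exceeded XY by 1.17 (SE 0.25, edgeR adjusted p = 4.99e-04), 1.20 (SE 0.25, 3.27e-04) and 0.61 (SE 0.25, 0.0369) at the 3 later stages, and the 0.15 at E11.5 (SE 0.25, adjusted p = 0.671) was not called. The E11.5 value turned on 1 library: without XX E11.5 replicate 2, the one with the most Foxl2, it was -0.50 (edgeR adjusted p = 0.0130). The E15.5 call was lost without XX E15.5 replicates 1 or 3 or XY E15.5 replicates 1 or 3 (0.59, 0.61, 0.60 and 0.66, with adjusted p from 0.0552 to 0.0767). In XX it rose by 1.19 (SE 0.26, edgeR adjusted p = 0.00142) to E12.5, or by 1.83 without XX E11.5 replicate 2. With the 6 libraries of this step fitted alone it was 1.16 and not called (edgeR adjusted p = 0.0968). In the fit of all libraries the later XX steps were not called. No XY step was called, although levels at E15.5 were above those at E13.5 in every library, and with the 6 libraries of that step fitted alone the 0.46 was called (edgeR adjusted p = 1.21e-04). Whether the sex difference changed with stage was called at an adjusted p of 0.0346 in edgeR, and the call was lost when XX E11.5 replicate 3 (0.0535), XX E13.5 replicate 1 (0.0527), or either of replicates 2 and 3 of XY E11.5 (0.0515 and 0.0614) was left out.

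Aldh1a3, the third retinaldehyde dehydrogenase gene, was the lowest of the 3 in every group and higher in XX at every stage. XX libraries held 3.39, 5.87 and 5.03 TPM at E11.5, then 7.89, 7.79 and 10.1 TPM at E12.5, then 6.51, 5.40 and 6.31 TPM at E13.5, and last 4.83, 6.17 and 4.92 TPM at E15.5. XY libraries held 3.03, 2.70 and 3.41 TPM at E11.5, then 1.34, 1.44 and 1.63 TPM at E12.5, then 2.59, 2.04 and 2.81 TPM at E13.5, and last 3.66, 3.04 and 3.40 TPM at E15.5. Mean TPM was highest in XX and lowest in XY at E12.5, and the groups overlapped at E11.5 alone. The XX minus XY difference was 0.75 (SE 0.19, edgeR adjusted p = 0.00381), 2.33 (SE 0.20, 3.07e-09), 1.39 (SE 0.20, 2.85e-06) and 0.72 (SE 0.20, 0.00283) at the 4 stages. The E11.5 value was 0.49 (edgeR adjusted p = 0.0465) without XX E11.5 replicate 2, and with the 6 E11.5 libraries fitted alone it was 0.74 and not called (adjusted p = 0.129). In XY it fell by 0.76 on the log2 scale to E12.5 and rose by 0.70 to E13.5 (edgeR adjusted p = 0.0227). That rise was not called without XY E12.5 replicates 1 or 2 or XY E13.5 replicates 1 or 3 (0.66, 0.70, 0.69 and 0.62, with adjusted p from 0.0552 to 0.103). In XX it rose by 0.82 (SE 0.19, edgeR adjusted p = 0.00253) to E12.5, a step of 0.80 that was not called with its 6 libraries fitted alone (adjusted p = 0.113). The later XX steps of -0.24 to E13.5 and -0.28 to E15.5 were not called (edgeR adjusted p = 0.362 and 0.318). The step to E13.5 was -0.43 and called with limma on log2(TPM + 1) (adjusted p = 0.0349).

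Rdh10 parted by sex after E11.5. The gene, whose enzyme makes retinaldehyde, was at 11.6, 11.4 and 10.5 TPM in XX and 10.3, 11.6 and 11.2 TPM in XY at E11.5, and these ranges overlapped. XX libraries then held 17.0, 15.9 and 14.3 TPM at E12.5, then 14.7, 12.7 and 11.8 TPM at E13.5, and last 19.9, 24.3 and 22.0 TPM at E15.5. XY libraries fell to 1.15, 2.19 and 2.85 TPM at E12.5 and held 1.26, 1.49 and 1.83 TPM a day later and 2.12, 1.14 and 1.41 TPM last. From E12.5 no XY library reached any XX library. The XX minus XY difference, in order of stage, was 0.08 (SE 0.20, edgeR adjusted p = 0.762), 2.81 (SE 0.22, 5.37e-10), 3.11 (SE 0.23, 1.28e-10) and 3.79 (SE 0.23, 7.75e-12). The fall in XY to E12.5 was -2.25 (SE 0.22, edgeR adjusted p = 2.50e-08), a 4.76-fold change. The next XY step, -0.40, was not called, and was called without XY E12.5 replicate 1 (-0.66, edgeR adjusted p = 0.0339). In XX the 0.48 to E12.5 was not called (edgeR adjusted p = 0.0708), and it was called without XX E11.5 replicate 2 (0.55, adjusted p = 0.0473) and with limma on log2(TPM + 1) (0.46, 0.0446). The rise of 0.66 from E13.5 to E15.5 in XX was called (edgeR adjusted p = 0.0201). It was lost without XX E13.5 replicates 2 or 3 or XX E15.5 replicates 2 or 3 (0.64, 0.60, 0.63 and 0.66, with adjusted p from 0.0535 to 0.0759).

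Dhrs3, whose enzyme turns retinaldehyde back into retinol and which is known to be induced by retinoic acid, had the highest level of the 10 genes in every XX group and in XY at E11.5. XX libraries held 856, 615 and 732 TPM at E11.5, then 457, 350.2 and 386 TPM at E12.5, then 477, 485 and 478 TPM at E13.5, and last 878, 764 and 963 TPM at E15.5. XY libraries held 149, 169 and 178 TPM at E11.5, then 23.9, 18.5 and 18.7 TPM at E12.5, then 5.54, 8.85 and 6.31 TPM at E13.5, and last 5.24, 7.85 and 7.38 TPM at E15.5. Every XX library was above every XY library at all 4 stages. The XX minus XY difference, in order of stage, was 2.18 (SE 0.14, edgeR adjusted p = 1.63e-10), 4.05 (SE 0.16, 8.53e-15), 6.09 (SE 0.17, 9.25e-17) and 6.99 (SE 0.18, 1.74e-17), the last a 127-fold difference. In XY it fell by 2.81 on the log2 scale (SE 0.15, edgeR adjusted p = 3.76e-12) to E12.5 and by 1.57 (SE 0.15, 7.39e-07) to E13.5. In XX it fell by 0.94 (SE 0.14, 4.83e-05) to E12.5 and rose by 0.48 (SE 0.14, 0.0111) to E13.5 and by 0.84 (SE 0.14, 1.62e-04) to E15.5, all in edgeR. The rise of 0.48 was 0.28 and not called with limma on log2(TPM + 1) (adjusted p = 0.187).

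Cyp26b1, the breakdown enzyme gene known for the fetal testis, rose and fell again in XY and faded in XX. XY libraries held 26.3, 33.6 and 21.2 TPM at E11.5, then 91.9, 102.3 and 93.3 TPM at E12.5, then 59.2, 47.0 and 60.4 TPM at E13.5, and last 34.8, 32.6 and 33.3 TPM at E15.5. XX libraries held 14.2, 3.0 and 12.46 TPM at E11.5, then 1.73, 2.35 and 2.25 TPM at E12.5, then 0.59, 0.42 and 0.15 TPM at E13.5, and last 0.06, 0.28 and 0.03 TPM at E15.5. No XX library reached any XY library of its stage, and the 3 E12.5 XY libraries were the highest of the 24. The XX minus XY difference, in order of stage, was -1.42 (SE 0.32, edgeR adjusted p = 0.00134), -5.78 (SE 0.39, 8.50e-11), -7.25 (SE 0.46, 2.78e-11) and -8.73 (SE 0.56, 3.00e-11). With the 6 E11.5 libraries fitted alone, the E11.5 difference was -1.42 and not called (edgeR adjusted p = 0.0820). At E15.5 the XX libraries held 11 counts against 5594 in XY, a 440-fold ratio of scaled counts with an exact 95% counting interval from 245 to 881. Without XX E15.5 replicate 2, the XX library with most counts, the fitted difference was -9.56. In XY it rose by 2.03 (SE 0.32, edgeR adjusted p = 2.05e-05) to E12.5. The later XY steps of -0.82 and -0.73 were not called in the fit of all libraries (edgeR adjusted p = 0.0731 and 0.0987), although the groups did not overlap. With only the 6 libraries of each step, they were -0.80 (adjusted p = 7.36e-04) and -0.73 (4.62e-05) and were called. In XX it fell by 2.33 (SE 0.35, edgeR adjusted p = 8.17e-05) to E12.5 and fell by 2.29 (SE 0.48, 0.00123) to E13.5. The next XX step, -2.21, was not called (adjusted p = 0.0710), while it was called with DESeq2 (-2.20, adjusted p = 0.00323) and in edgeR without the 6 E11.5 libraries (-2.25, 0.00141).

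The XX E11.5 libraries differed among themselves in Cyp26b1 and in several marker lists. Replicate 2, with 3.0 TPM of Cyp26b1, had 939 TPM of pre-granulosa markers and 15.8 TPM of Foxl2, while replicates 1 and 3 had 584 and 469 TPM of these markers. Sertoli markers in the 3 libraries stood at 281, 166 and 167 TPM, Sox9 among them at 91.0, 27.7 and 28.6 TPM. Interstitial markers stood at 397, 187 and 1047 TPM, immune markers at 199, 105 and 294 TPM, and erythroid markers too were lowest in replicate 2. Replicate 2 was lowest in Cyp26b1 and in the Sertoli, interstitial, immune and erythroid sums, though close to replicate 3 in the Sertoli sum. Replicate 1 was highest in Cyp26b1 and the Sertoli sum, and replicate 3 in the interstitial, immune and erythroid sums. The part of these levels in the E11.5 differences was not tested. Without replicate 2 the E11.5 difference in Cyp26b1 was -1.0 (edgeR adjusted p = 2.66e-04), and without replicates 1 or 3 it was -1.75 and -1.65, all called.

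Cyp26a1, a breakdown enzyme gene known to be induced by retinoic acid, had most of its reads in XY at E11.5. XY libraries held 8.57, 7.54 and 6.81 TPM at E11.5, then 0.86, 0.54 and 0.86 TPM at E12.5, then 0.14, 0.03 and 0.09 TPM at E13.5, and last 0.04, 0 and 0 TPM at E15.5. In counts these were 301, 272 and 234 first, then 22, 15 and 23 a day later, and at most 1 in any later library. XX libraries held 15, 3 and 5 counts at E11.5, none at E12.5 (0 in all 3), then 2 in each, and 2, 11 and 9 at E15.5. The groups were apart at E11.5 and E12.5 with XY higher, overlapped at E13.5, and were apart at E15.5 with XX higher. At E11.5 the difference was -4.07 (SE 0.47, edgeR adjusted p = 1.17e-06), or -4.99 without XX E11.5 replicate 1. At E12.5 XY was at least 7.08-fold higher than the floor of 3 counts per library in XX. At E13.5 both groups were at or under the floor. At E15.5 the difference was called with XX higher (edgeR adjusted p = 2.86e-04) on 22 counts against 1, a 25.5-fold ratio with an exact 95% counting interval from 4.11 to 1051. The fitted difference, 4.29, was 6.29 without XY E15.5 replicate 1, which held that count. In XY it fell by 2.96 (SE 0.42, edgeR adjusted p = 9.16e-06) to E12.5 and again to E13.5, from 60 counts to 3, a 21.4-fold ratio (6.98 to 107). In XX it fell from 23 counts to 0 at E12.5 (edgeR adjusted p = 2.72e-04), at least 3.28-fold, and the fitted step of -6.23 was -5.36 without XX E11.5 replicate 1. The XX rise from 6 counts at E13.5 to 22 at E15.5, a 3.81-fold ratio (1.5 to 11.47), was called at an adjusted p of 0.0488 in edgeR. That call was lost without any 1 of the 5 libraries XX E13.5 replicates 1, 2 and 3 and XX E15.5 replicates 2 and 3 (adjusted p from 0.0831 to 0.209). It was also lost with DESeq2 (0.0662), with DESeq2 size factors (0.0518), with no filter (0.0677) and with limma in all 3 settings (0.156 to 0.250). Germ cell markers summed to 141 to 215 TPM in these XX E15.5 libraries and to 19.95 to 41.9 TPM in XX E13.5, and their part in this change was not tested.

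Cyp26c1, the neighbour of Cyp26a1 and the third gene of the family, held at most 1 count in any library. Its highest value was 0.06 TPM, and no fold is given because all groups were under the floor.

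Summed over the families, dehydrogenase transcripts were more abundant at E15.5 than at E11.5 in both sexes. The mean sum of breakdown transcripts was 10.3 TPM at E11.5 and 2.11 TPM a day later in XX, whereas in XY it went from 34.7 to 96.6 TPM at E12.5 and was back at 33.6 TPM at E15.5. The sum of Aldh1a1, Aldh1a2 and Aldh1a3 was 39.3 to 88.7 TPM in XX and 92.5 to 110.0 TPM in XY at E11.5, and 304 to 325 TPM in XX and 639 to 674 TPM in XY at E15.5. The sum of the 3 Cyp26 genes was 3.11 to 14.9 TPM in XX and 28.0 to 41.2 TPM in XY at E11.5, and 0.20 to 0.92 TPM in XX and 32.6 to 34.8 TPM in XY at E15.5. XY stood higher in both sums, without overlap, at both of these stages. The ratio of dehydrogenase to breakdown transcripts was 2.87, 28.5 and 3.07 in XX and 2.67 to 3.31 in XY at E11.5, where the groups overlapped. It was 52.6 to 86.8 in XX and 3.23 to 4.09 in XY at E12.5, and 19.2 to 20.5 in XY at E15.5. The XX ratio at E15.5 is not read, because Cyp26a1 and Cyp26b1 held only 2 counts each in XX E15.5 replicate 1. These are ratios of transcripts, not of enzyme activity. With 3 libraries against 3, an exact two-sided permutation test of a single ratio cannot go below 0.10, so none is given.

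**Figure D3:**
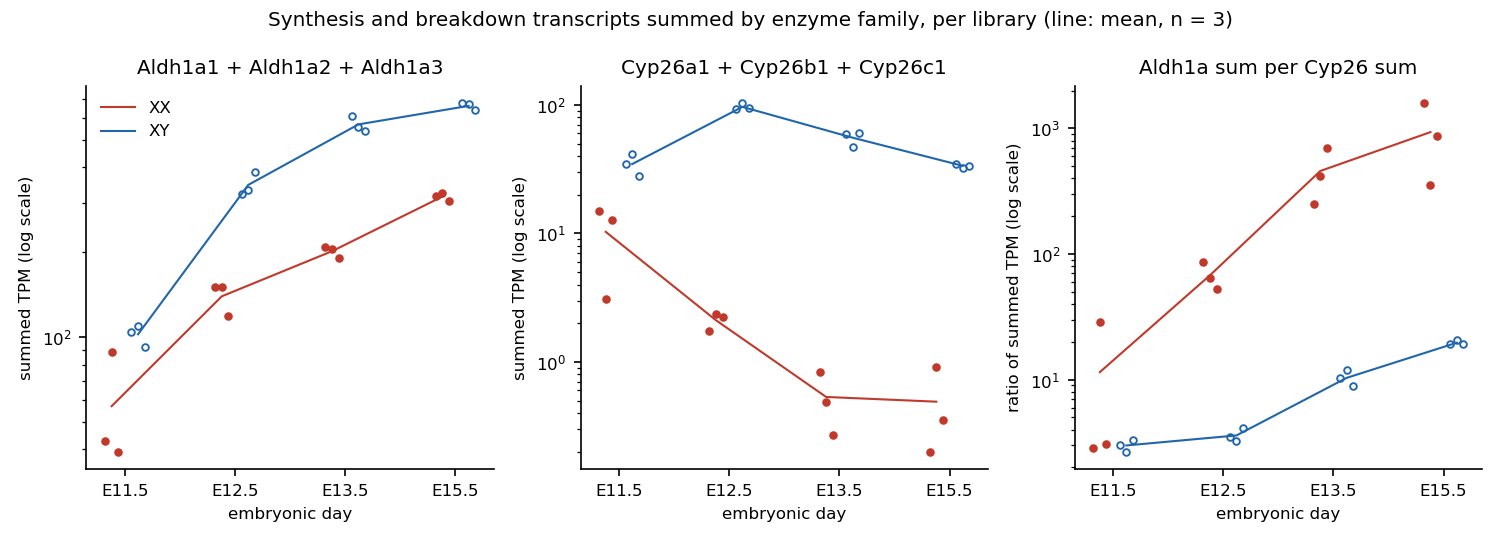
Summed TPM of the Aldh1a genes (left) and the Cyp26 genes (middle) and the ratio of both sums (right) in each of 24 libraries by embryonic day, on log axes; points are libraries and lines join the means of 3. The XY sum of Cyp26 stays between 28.0 and 103 TPM while the XX sum falls from 3.11 or more to 0.92 or less, so that the XX ratios of the last stages rest on few counts.

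Crabp1 and Crabp2, whose proteins bind retinoic acid in the cytoplasm, had their highest means at E11.5 in both sexes and fell in XY by E12.5. Crabp2 was at 36.1, 54.7 and 59.6 TPM in XY and 31.4, 37.1 and 39.5 TPM in XX at E11.5, with overlapping ranges. XX libraries then held 22.1, 19.7 and 24.5 TPM at E12.5, then 18.6, 15.7 and 17.6 TPM at E13.5, and last 2.48, 3.68 and 3.15 TPM at E15.5. XY libraries held 4.09, 3.66 and 4.42 TPM at E12.5, then 3.38, 2.87 and 2.66 TPM at E13.5, and last 2.38, 2.33 and 2.39 TPM at E15.5. From E12.5 the groups did not overlap, and at E15.5 they lay close together. XX exceeded XY by 2.23 (SE 0.18, edgeR adjusted p = 6.73e-10) at E12.5 and by 2.60 (SE 0.19, 8.86e-11) at E13.5. The differences of -0.39 at E11.5 (SE 0.16, edgeR adjusted p = 0.0547) and 0.45 at E15.5 (SE 0.21, 0.0671) were not called. The first was called without XX E11.5 replicate 2 (-0.47, edgeR adjusted p = 0.0365) or XY E11.5 replicate 1 (-0.57, 0.00701) and with limma in all 3 settings (-0.44 to -0.45, adjusted p from 0.0277 to 0.0414), and the second without XX E15.5 replicate 1 (0.54, 0.0459). Crabp2 fell by 3.42 (SE 0.18, edgeR adjusted p = 3.53e-12) in XY at the first step. In XX it fell by 0.80 (SE 0.16, 7.58e-04) to E12.5 and by 2.49 (SE 0.19, 1.68e-08) from E13.5 to E15.5, both in edgeR.

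Crabp1 was uneven at E11.5, at 9.03, 7.59 and 37.7 TPM in XX and 7.11, 9.17 and 27.6 TPM in XY. Replicate 3 was the highest in each sex, and these 2 libraries also had the highest sums of interstitial markers, 1047 and 777 TPM, against 187 to 545 TPM in the other 4. The part of interstitial cells in these levels was not tested. Without replicate 3 the means were 8.31 TPM in XX and 8.14 TPM in XY. XX libraries later held between 4.22 and 6.48 TPM, and XY libraries at most 0.59 TPM, without overlap. The E11.5 difference of 0.38 (SE 0.49, edgeR adjusted p = 0.563) was not called, and it was -0.73 without XX E11.5 replicate 3 and 1.20 without XY E11.5 replicate 3, neither called. At E12.5 the XX libraries held 160 counts against 10, a 15.1-fold ratio with an exact 95% counting interval from 8.0 to 32.1 (edgeR adjusted p = 9.94e-05). At E13.5 they held 148 against 2, a 104-fold ratio (28.2 to 863, adjusted p = 3.00e-06), and at E15.5, 119 against 11, a 12.52-fold ratio (6.75 to 25.8, adjusted p = 1.69e-04). The fitted E12.5 difference of 3.88 was 4.99 without XY E12.5 replicate 2. In XY it fell from 738 counts to 10 by E12.5, a 43.1-fold ratio (23.3 to 90.3, edgeR adjusted p = 2.04e-06). The fitted step was -5.38, or -4.64 without XY E11.5 replicate 3, while leaving out XY E12.5 replicate 2 gave -6.50. In XX it fell by 1.88 (SE 0.53, edgeR adjusted p = 0.00902) to E12.5, but without XX E11.5 replicate 3 the step was -0.78 and not called (adjusted p = 0.204), with the 6 libraries of the step fitted alone it was -1.92 and not called (0.0930), and neither was any XX change across stages (0.319).

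**Figure D4:**
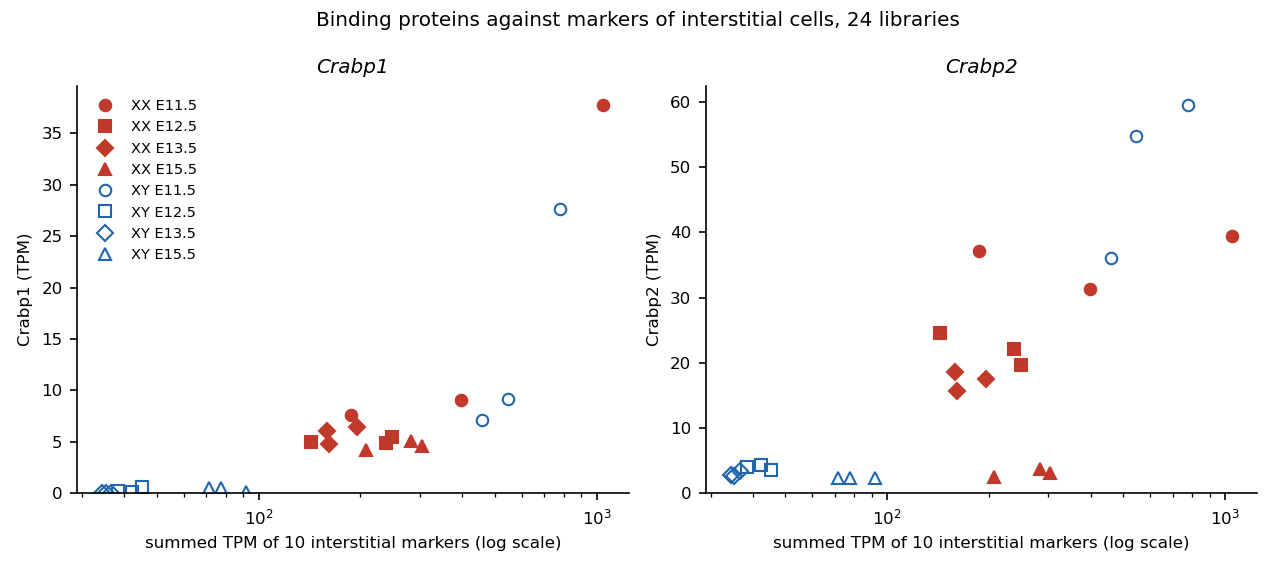
TPM of Crabp1 (left) and Crabp2 (right) against the summed TPM of 10 interstitial markers (log axis) in each of 24 libraries, by sex and stage. The 2 libraries above 25 TPM of Crabp1 are replicate 3 of XX E11.5 and of XY E11.5, at 1047 and 777 TPM of the markers, while Crabp2 is above 30 TPM in all 6 E11.5 libraries.

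Within a group, the order of levels differed by sex. In XX E12.5, Dhrs3 (mean 398 TPM) stood above Aldh1a2 and Aldh1a1 (68.1 and 63.0 TPM, which overlapped), followed by Crabp2 (22.1), Rdh10 (15.7), Aldh1a3 (8.58), Crabp1 (5.13) and Cyp26b1 (2.11). In XY E12.5, Aldh1a1 (319 TPM) led, followed by Cyp26b1 (95.9), then Aldh1a2 and Dhrs3 (26.4 and 20.4 TPM, which overlapped) and Crabp2 (4.06). Rdh10 and Aldh1a3 (2.06 and 1.47 TPM) overlapped, and Cyp26a1 and Crabp1 were below 1 TPM in each XY E12.5 library. Across groups, Cyp26b1 ran from XY E12.5 (95.9 TPM) through XY E13.5 (55.5 TPM) to XY E15.5 and XY E11.5 (33.6 and 27.0 TPM, which overlapped). Dhrs3 was highest in XX E15.5 and XX E11.5 (869 and 735 TPM, which overlapped), and lowest in XY E13.5 and XY E15.5 (6.90 and 6.82 TPM, also overlapping).

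Other genes of the pathway were read from 5 lists of 29 genes, 25 of which were tested. Of these, edgeR called 10, 21, 19 and 20 in order of stage, of which 5, 14, 11 and 11 were higher in XX, beside the shares of all genes given above. With the 6 E11.5 libraries fitted alone, 4 were called at E11.5, and 2718 of all genes against 6803 in the fit of all libraries. Of the 6 other retinol and retinaldehyde oxidoreductases, 3, 4, 3 and 4 were called higher in XY at the 4 stages (against 20.6%, 31.5%, 33.3% and 34.4% of all genes). Another 0, 1, 1 and 2 were called higher in XX (against 21.4%, 30.5%, 32.8% and 34.9%). Adh1, an alcohol dehydrogenase gene, had group means of 171 to 520 TPM in XY and 10.5 to 176 TPM in XX and was higher in XY at each stage (XX minus XY -1.41, -4.25, -1.56 and -2.77 on the log2 scale). Adh5, another one, was at 250.2 to 457 TPM in XY and 114 to 173 TPM in XX. Dhrs4, a retinaldehyde reductase gene, went the other way from E12.5, with 159 TPM in XX and 61.0 TPM in XY at that stage (log2 difference 1.07, SE 0.10, edgeR adjusted p = 1.32e-08). Of the 3 tested genes of uptake and storage, 1, 1, 0 and 0 were called higher in XX in order of stage. At each stage 1 was called higher in XY, beside the same shares of all genes. Rbp4, the plasma retinol carrier gene, was called at E11.5 on XX E11.5 replicate 1 alone (124.7 TPM), and without it the difference of 5.66 was 0.80 and not called (edgeR adjusted p = 0.323).

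Of the 6 receptor genes, 2, 5, 3 and 2 were called higher in XX at the 4 stages (against 21.4%, 30.5%, 32.8% and 34.9% of all genes) and 0, 1, 2 and 2 higher in XY (against 20.6%, 31.5%, 33.3% and 34.4%). Rara, the retinoic acid receptor alpha gene, had means of 34.3 TPM at E11.5 and 93.3 TPM at E15.5 in XY, and of 44.5 and 13.7 TPM in XX. Its XX minus XY difference was -0.79 (SE 0.16, edgeR adjusted p = 1.79e-04) at E12.5 and -2.86 (SE 0.17, 4.81e-12) at E15.5. Rarb, a receptor gene known to be induced by retinoic acid, was at 2.47 to 10.8 TPM in XX and 6.36 to 16.8 TPM in XY at E11.5, and from E12.5 at 0.64 to 2.28 TPM in XX and at most 0.29 TPM in XY. It was called higher in XX at these 3 stages. Among the E11.5 libraries, Rarb was highest in XX replicate 1 and XY replicate 3. Fabp5, whose fatty acid binding protein can also carry retinoic acid, was higher in XY from E12.5. In XY it was at 19.96 TPM at E11.5 and 103 TPM at E15.5, and in XX at 14.4 and 3.41 TPM (means), and the difference was called from E12.5 (-2.99, -3.18 and -4.57).

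Of the 9 tested genes known to respond to retinoic acid, 3, 7, 8 and 8 were called in order of stage, of which 2, 7, 7 and 7 were higher in XX (against 21.4%, 30.5%, 32.8% and 34.9% of all genes). Rec8, a meiotic cohesin gene, was at 27.4, 41.3 and 17.5 TPM in XX and 12.1, 13.8 and 11.6 TPM in XY at E11.5, and at 83.0, 91.5 and 110.1 TPM in XX and 4.33, 7.26 and 5.95 TPM in XY at E12.5. These groups did not overlap, and the E12.5 difference was 3.87 (SE 0.24, edgeR adjusted p = 1.50e-11). Rarres2, which encodes the adipokine chemerin, was at 40.9 TPM in XX and 2.88 TPM in XY at E12.5 (means), and its difference was 3.70 there and 3.29 at E15.5. Nrip1, Tgm2 and Meis1 were called higher in XX from E12.5, by 0.98 to 2.31. Rarres1 went against the others, with -1.64 at E13.5 and -2.03 at the last stage, after 0.73 at E12.5, a call lost without XX E12.5 replicate 3 (0.32, edgeR adjusted p = 0.108). Stra8, a gene of germ cells at the start of meiosis, was at 1.17, 1.69 and 2.12 TPM in XX E13.5 and 4.98, 3.86 and 6.42 TPM in XX E15.5, and at 0 in all 6 XY libraries of these stages. Sycp3, another germ cell marker, was at 75.4, 109.8 and 128.0 TPM in XX E15.5 and 2.55 to 5.09 TPM in XY E15.5. In XX E15.5 the 10 germ cell markers summed to 141 to 215 TPM, and in XY E15.5 to 60.3 to 113 TPM. In XY E13.5 the sum was 9.62 to 17.15 TPM. Of the 10 markers, 9 were at 1 TPM or more in every XY E15.5 library, where Stra8 was at 0. The part of germ cells in the Stra8 level was not tested.

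**Figure D5:**
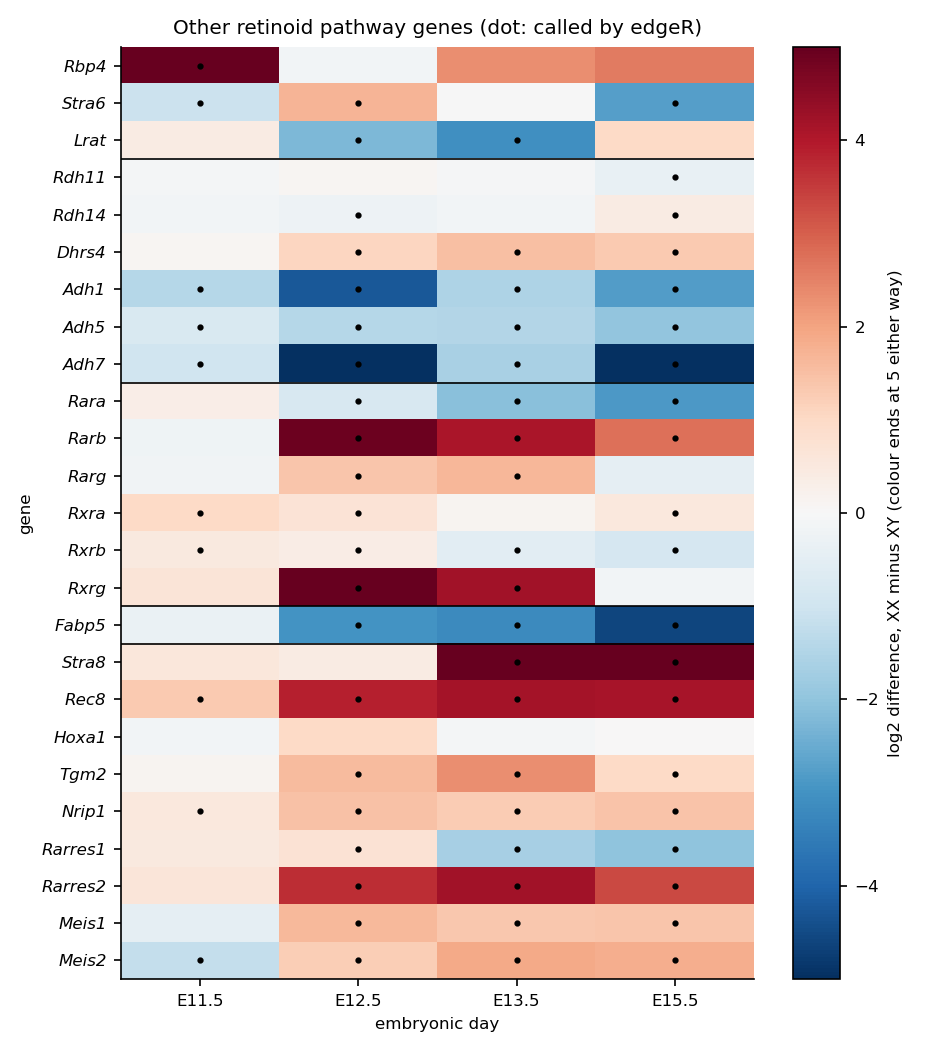
Log2 difference of XX minus XY (colour, red higher in XX, blue higher in XY) at 4 stages for the 25 other pathway genes tested, with lines between the 5 lists; a dot marks a call by edgeR. Among the 9 responsive genes at the bottom, 7 are called higher in XX at each stage after E11.5, and the alcohol dehydrogenases and Fabp5 are blue.

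For each of the genes with a group mean of at least 10 TPM other than Cyp26a1, Cyp26c1 and Aldh1a3, which did not reach it, the 3 most similar genes were named by Pearson's r of log2(CPM + 1) over 24 libraries. These r describe the shared contrast of sexes and stages, and the names depend on the measure: by Spearman's rho, none of the 3 genes named for Cyp26b1, Aldh1a2, Rdh10, Crabp1 or Crabp2 was among the closest 3, and 1 each was for Aldh1a1 and Dhrs3. Closest to Cyp26b1 were Tox2 (r = 0.982), Pcsk5 (0.982) and Pdlim1 (0.980). Pcsk5, a proprotein convertase gene, had means of 45.3, 96.2, 55.9 and 39.4 TPM in XY over the 4 stages and 17.1 TPM or less in XX. Closest to Dhrs3 were Nucb2 (0.986), Zfp503 (0.985) and Kalrn (0.985), and closest to Rdh10 were Pak1 (0.983), Myl9 (0.982) and Ets1 (0.981). Ets1, a transcription factor gene, was at 28.0 TPM in XY E11.5 and 1.58 TPM in XY E12.5, and at 30.6 to 87.8 TPM in XX (means). Closest to Aldh1a1 were Chchd10 (0.984), Gatm (0.976) and Ptprf (0.969), and closest to Aldh1a2 were Oat (0.935), Krtcap2 (0.926) and 0610012G03Rik (0.921). Crabp1 was most like Clmp (0.969), Spon2 (0.967) and Flrt3 (0.955), and Crabp2 most like Tspyl4 (0.947), Tgm3 (0.943) and Gstk1 (0.943). The likeness of Rdh10 and Dhrs3 to each other was 0.957 over the same libraries, but 0.315 within XX libraries and 0.921 within XY libraries.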

How the data were processed

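Polyadenylated RNA of the sorted cells was amplified with a kit for small inputs, per the labels' protocols. The deposited estimated counts and the deposited TPM values were made by the authors, on build mm10 per the submitters' processing notes; the aligner, the counter and the use of strand are not given in the sources used here. Of the count values, 17.5% were not whole, and all were rounded before testing. TPM summed to between 0.939 and 0.962 of full scale over the 32040 genes listed. Groups were taken from the titles.

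Genes were kept by filterByExpr, scaled by TMM and tested with the robust quasi-likelihood test of edgeR 4.0.16 (R 4.3.3), with a mean per group, 8 in all (3 libraries each, 16 residual degrees of freedom, biological coefficient of variation 17.4%). The Benjamini-Hochberg adjustment ran over 16190 genes in each of 13 comparisons. The members, the pathway lists and the marker lists were chosen with earlier results of these data known. Every member and every gene of the pathway lists could be named, as could the 3 genes most like each member with a group mean of at least 10 TPM. Where a group had few counts, the ratio of scaled summed counts with its exact 95% interval, or a bound against 3 counts per library, was computed; both cover counting error only. A count of 3 corresponded to 0.0774 to 0.260 CPM. The fit was tested on simulated data. Counts of replicates differed beyond counting noise in all 24 pairs within groups (chi-square per degree of freedom 3.83 to 114.3). Same-numbered libraries deviated together with r over 0.1 in every pair in XX against XY at E11.5 (0.169, 0.132 and 0.351). In none of the other 9 comparisons did every pair exceed 0.1. Of 30 pairs in all, 7 did. Those elsewhere were in XX against XY at E12.5 (0.140), XX from E13.5 to E15.5 (0.103 and 0.234) and XY from E11.5 to E12.5 (0.186). Alternatives were DESeq2 1.42.0 and its size factors, no filter, the replicate number as a block, the libraries compared alone, limma 3.58.1 on log2(TPM + 1) and log2(TPM + 0.1) (genes at 1 TPM or more in at least 3 libraries), and each library left out. Leaving out the 6 E11.5 libraries was chosen after seeing the data.
Counts summed to between 11275251 and 37256881 per library. Some genes of the pathway lists are not reported here and were left out of their counts.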

Additional observations from a re-analysis of the deposited data

Results flagged for a closer look

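For each of the 9 genes tested, the XX minus XY difference changed between the 4 stages in edgeR's interaction test. The adjusted p was 8.12e-13 for Dhrs3, 2.67e-09 for Crabp2, 6.89e-09 for Rdh10, 1.67e-08 for Cyp26b1 and 3.88e-07 for Cyp26a1. It was 9.00e-05 for Aldh1a3, 2.16e-04 for Crabp1, 0.00423 for Aldh1a1 and 0.0346 for Aldh1a2. Of all genes tested, 70.1% were called in the same test, so a call there sets none of the 9 apart. Cyp26a1 is the gene of the 9 that was called higher in XY first, at E11.5 and E12.5, and higher in XX later, at E15.5. The Aldh1a1 difference was widest at E12.5, at -2.55, and was -1.29 at E15.5, whereas those of Dhrs3, Rdh10 and Cyp26b1 were widest at E15.5 in edgeR. For Cyp26b1 the E15.5 value rested on 11 counts in XX. With limma on log2(TPM + 1) its difference was -5.35 at E13.5 and -4.95 at E15.5.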

How the results depend on the processing

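For the 9 genes tested, 117 results gave 1952 values under the alternatives. Of these, 1857 kept their direction and side of the threshold, 53 lost the call, 25 gained one and 17 reversed, and no called result reversed. The number of these genes called was 3 with the libraries compared alone in XX minus XY at E11.5 and at the first XX step (E11.5 to E12.5), and 2 in XX from E12.5 to E13.5 with limma on log2(TPM + 0.1) or without a filter. Leaving out 1 library gave 3 to 5 in XX from E13.5 to E15.5 and 2 to 4 in XY from E12.5 to E13.5. Without the 6 E11.5 libraries it was 7 at that XY step and 3 at the next, where the libraries compared alone gave 4. With the replicate block it was 5 in XX minus XY at E11.5, where same-numbered libraries deviated together though no label pairs them, and the block changed no call count. Differences that reversed were all uncalled in the fit of all libraries, and 1 was called in reverse (Aldh1a2 at E11.5 without XX E11.5 replicate 2, adjusted p = 0.0130). Aldh1a2 at E11.5 was -0.088 with limma on log2(TPM + 1), filtered or not, -0.094 on log2(TPM + 0.1) and -0.50 to 0.39 with 1 library left out, and Crabp1 there -0.73 to 1.20. Aldh1a2 at the first XY step was -0.046 with limma on log2(TPM + 1), filtered or not, -0.048 on log2(TPM + 0.1) and -0.11 to 0.21 with 1 library left out. Rdh10 in XY from E13.5 to E15.5 was 0.0050 with limma on log2(TPM + 1) and -0.30 to 0.17, and Dhrs3 there -0.20 to 0.10. Crabp2 in XX from E12.5 to E13.5 was -0.17 to 0.0018. The cause was not tested. All genes called moved by over 1.5 times in XX minus XY at E11.5 (2718 with the libraries compared alone), at the first XX step (1176), in XX from E13.5 to E15.5 (2726 without XX E13.5 replicate 1, 2540 without XX E15.5 replicate 3), in XY from E12.5 to E13.5 (4317 alone, 4470 without the E11.5 libraries, 1503 to 1626 without 1 library) and in XY from E13.5 to E15.5 (6111 and 5187). Medians of all genes lay between -0.21 and 0.17 with limma on log2(TPM + 0.1), against -0.01 to 0.05 in edgeR. By its construction, limma on log2(TPM + 1) gave smaller differences for low genes (Cyp26b1 at E15.5, -4.95). Of 70 called pathway differences, 55 kept their call throughout and none reversed.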
